A study of Mus musculus with 6 samples.

Results

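The 10 genes described here encode the FOS and JUN subunits of the transcription factor AP-1 (Fos, Fosb, Fosl1, Fosl2, Jun, Junb and Jund), the related factor Atf3, and the immediate early genes Egr1 and Ier3. They are 10 of 18193 genes that the array annotation names singly, and they are read by 14 of 45037 probe sets, each a set of short array probes for a transcript. The genes were taken by symbol, and the brightest probe set of each, by its mean over the 6 arrays, stands for the gene; the other 4 probe sets belong to Fosl1, Fosl2, Jun and Jund. Expression was measured in pancreatic tumour cells of C57BL/6 mice at 11 weeks of age, with 1 single-colour Affymetrix array per sample. All 6 samples carried engineered tumour alleles, among them p53f/f and ptf1a-Cre, in which Cre recombinase is driven by the gene of a pancreatic lineage factor. In 3 samples, called wt, Msi1 was intact; the other 3 were Msi1 -/-, which removes the RNA-binding protein Musashi 1. The labels do not say which cells lost Msi1, nor plainly whether each sample came from its own animal. The tests therefore weigh group differences against the scatter of these 6 arrays, which may be technical.

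AP-1 is a dimer of basic leucine zipper proteins in which a JUN protein pairs with another JUN, a FOS or an ATF protein on a short DNA element. Immediate early genes are transcribed within minutes of growth factor, stress or wounding signals, without new protein synthesis, and their mRNAs decay quickly. In pancreatic tumours the pathway lies downstream of RAS and MAP kinase signalling. Immediate early transcripts are also known to respond to the handling and dissociation of tissue.

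Before the comparison, the arrays were checked for depth of signal, identity and cell content. Median intensity lay between 159 and 164 in the 6 arrays, and Pearson's r between any 2 arrays over all probe sets was between 0.975 and 0.993. Array background was set from 83 probe sets for olfactory, vomeronasal and taste receptors, as their 95th percentile, and lay between 162 and 189. The brightest probe set of the deleted gene, Msi1, read 144, 150.4 and 257 in wt and 141, 168 and 127 in Msi1 -/- arrays. It averaged 184 ± 63.6 in wt and 146 ± 21.0 in Msi1 -/- arrays (SD, n = 3; exact permutation p = 0.5). The groups overlapped near background, so this probe set did not check the genotype labels. Wt replicate 3 read 6226 for Xist and 88.2 for Eif2s3y, a female pattern, against at most 387 and at least 716 in the other 5 arrays. All 10 measured markers of ductal and tumour epithelium were above background in at least 1 array, among them Krt19 at 6174 or more and Epcam at 6614 or more in every array. Markers of other cells were also well above background, among them Col1a1 of fibroblasts at 2848 or more, Cd68 of macrophages at 1007 or more and Cela3b of acinar cells at 749 or more. The samples therefore held RNA of several cell types, and in such bulk RNA fewer cells of a type cannot be told apart from less RNA per cell.

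The comparison addressed AP-1 and immediate early transcripts in tumours that lack Msi1. Mean levels in Msi1 -/- arrays were lower for 7 of the 10 genes, Fos, Fosl2, Jun, Junb, Jund, Egr1 and Ier3, and higher for Fosl1, Atf3 and Fosb, the last from values below background, but 0 of 10 passed the test. Differences are Msi1 -/- minus wt on the log2(intensity + 1) scale. The added 1 alters them only slightly, as the lowest deposited value was 51.2. How far background signal compresses differences of dim transcripts was not tested. The differences of the 10 genes ran from -0.44 for Egr1 to 0.20 for Atf3, with a median of -0.20, against a median of 0.00 over all 45037 probe sets. A linear model across all probe sets (limma, Benjamini-Hochberg) gave every one of the 10 an adjusted p of 0.9997. At an adjusted p under 0.05, 0 of all probe sets were called, which is 0% of those tested. At an unadjusted p under 0.05 there was 1 member, Fosl2, against 3.01% of all probe sets. That count was not stable. It was 0 without any 1 of the wt replicates or without Msi1 -/- replicate 3 (Fosl2 unadjusted p at most 0.0694). With probe sets averaged per gene it was also 0 (0.0856). It was 3 without Msi1 -/- replicate 2 (Fos 0.0183, Egr1 0.0190 and Fosl2 0.0408). Fits with 1 array fewer are less precise, and the Fosl2 difference stayed between -0.29 and -0.24 in them. Fosl2 was still the only such member under array weights (0.0117), no variance trend (0.00141) or a filter at a mean log2 of 8 (0.0161). Of all probe sets 48.6% had a lower mean in Msi1 -/- arrays, beside which the 7 of 10 stand. The groups did not overlap for 1 member, again Fosl2, which was lower in Msi1 -/- arrays, as were 3.71% of all probe sets without overlap; 4.08% were higher without overlap and 0 members were. The median standard error of the 10 genes was 0.15, against 0.08 over all probe sets and 0.10 over all genes by 1 probe set each. Not all 10 were high in this: Jund and Fosl2 lay at percentiles 54.1 and 57.4 of all probe sets.

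**Figure D1:**
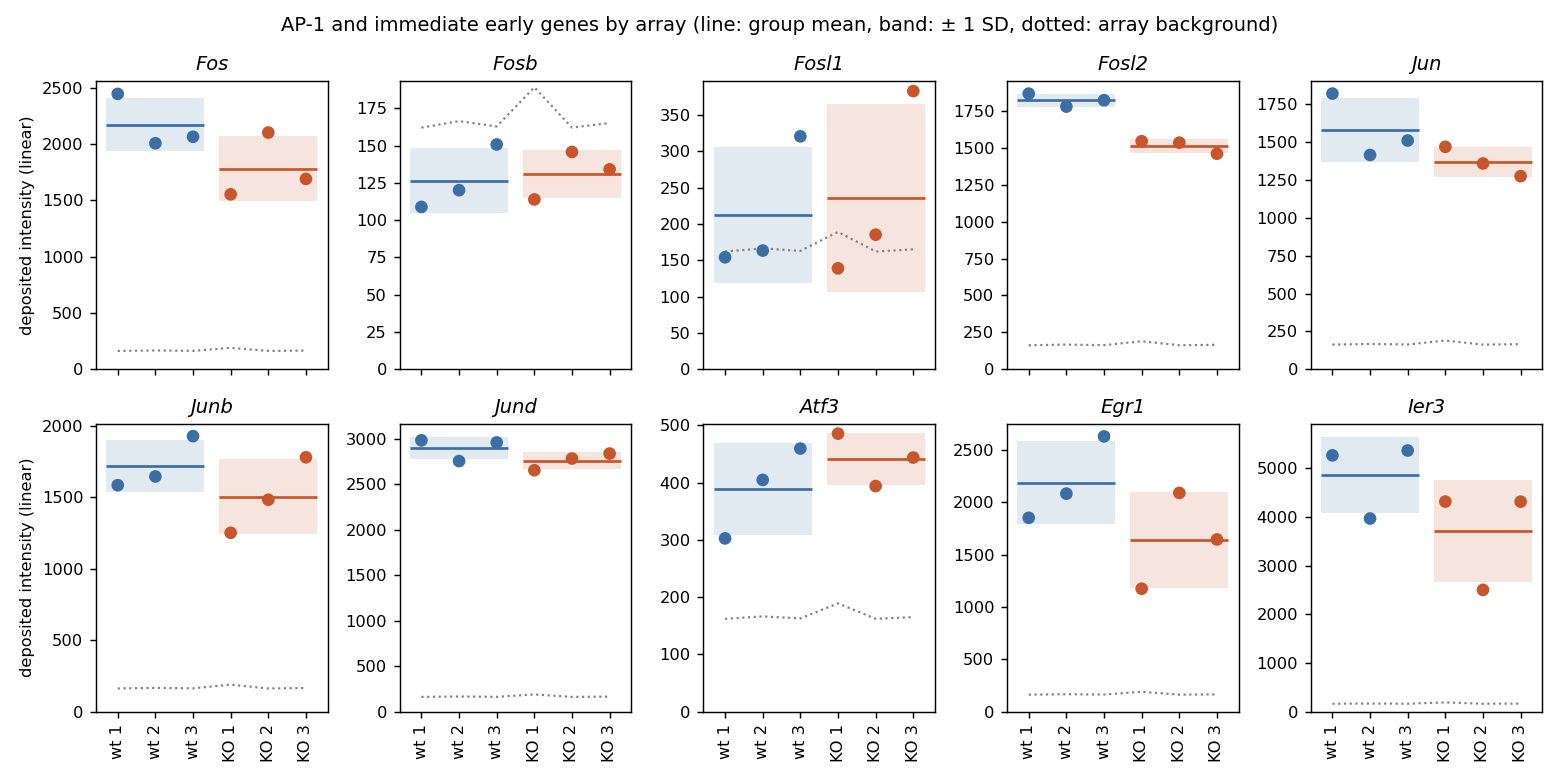
Deposited linear intensity (y axis, from 0) of the 10 genes in the 3 wt arrays (blue) and the 3 Msi1 -/- arrays (orange, KO) on the x axis, with group means as lines, ± 1 SD as bands and the array background dotted. The groups separate for Fosl2 alone, Fosb lies under the background in every array, and Fosl1 is high in wt replicate 3 and Msi1 -/- replicate 3.

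Fos is the founding FOS subunit, and Jun its classical partner. The promoter windows of Fos and Jun, with that of Fosl2, are shown as examples: Fos and Jun as the namesakes of both families, and Fosl2 as the gene whose groups did not overlap. They were taken from RefSeq (GRCm38.p6), from 250 bases before to 50 bases after the gene's start. Such a window was at hand for 8 of the 10 genes, all but Fosl1 and Egr1. Capitals mark matches on either strand to the letters searched. These were the cAMP response element (CRE), TGACGTCA, and the shorter core TGACGT that lies within it. The AP-1 element was searched as TGACTCA, and its variant known from the Jun promoter as TGACATCA. Egr sites were searched as GCGGGGGCG and as GCGTGGGCG, the TATA box as TATAAA, and the CArG box of serum response factor by its consensus. The Fos window lies at chr12:85473640-85473939 (plus strand), the Jun window at chr4:95052173-95052472 (minus strand) and the Fosl2 window at chr5:32136222-32136521 (plus strand).
Fos: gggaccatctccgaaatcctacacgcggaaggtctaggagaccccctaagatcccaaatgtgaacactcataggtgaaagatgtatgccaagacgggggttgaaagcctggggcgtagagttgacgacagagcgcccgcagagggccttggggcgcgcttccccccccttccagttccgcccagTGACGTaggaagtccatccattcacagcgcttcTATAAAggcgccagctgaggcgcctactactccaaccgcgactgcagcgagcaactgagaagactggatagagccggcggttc
Jun: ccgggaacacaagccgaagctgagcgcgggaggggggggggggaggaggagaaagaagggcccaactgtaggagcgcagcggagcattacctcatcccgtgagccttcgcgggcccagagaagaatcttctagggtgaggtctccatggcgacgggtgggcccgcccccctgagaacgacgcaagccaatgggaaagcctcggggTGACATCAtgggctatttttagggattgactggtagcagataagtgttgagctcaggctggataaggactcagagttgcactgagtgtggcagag
Fosl2: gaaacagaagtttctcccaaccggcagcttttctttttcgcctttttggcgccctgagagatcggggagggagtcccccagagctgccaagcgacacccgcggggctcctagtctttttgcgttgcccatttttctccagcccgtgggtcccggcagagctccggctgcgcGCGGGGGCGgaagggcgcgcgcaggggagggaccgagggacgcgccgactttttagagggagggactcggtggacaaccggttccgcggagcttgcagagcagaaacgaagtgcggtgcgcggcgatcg

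In the Fos window the short CRE match starts 66 bases and a TATA box 33 bases before the start. The Jun window holds TGACATCA from 45 bases before the start, and the Fosl2 window an Egr site, GCGGGGGCG, from 79 bases before it. Among all 32851 windows of this length, 7.51% hold the short CRE match, 13.6% TATAAA, 3.62% TGACATCA and 2.91% GCGGGGGCG. Of the other windows, that of Fosb holds GCGGGGGCG, that of Atf3 the short CRE match and that of Junb TATAAA. The Junb match begins at the annotated start itself, not before it as in Fos. The full CRE, TGACTCA, GCGTGGGCG and the CArG box matched in 0 of the 8 windows and in 1.79%, 5.20%, 0.612% and 1.63% of all windows. These matches describe the sequence and do not show that a factor was bound. Elements outside the windows, and any of Fosl1 and Egr1, were not searched. A window without a match therefore does not show that the gene lacks the element.

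Among the FOS subunits, Fos read 2448, 2009 and 2067 in wt replicates 1 to 3 and 1555, 2104 and 1692 in Msi1 -/- replicates 1 to 3. Msi1 -/- replicates 1 and 3 lay below all wt arrays, and replicate 2 lay within the wt range. Means were 2175 ± 239 in wt and 1784 ± 286 in Msi1 -/- arrays (SD, n = 3). On the log2 scale they differed by -0.29 ± 0.15 (SE; 95% interval -0.63 to 0.05; limma unadjusted p = 0.0816; exact two-sided permutation p = 0.3). The smallest p that 3 against 3 arrays allow in the permutation test is 0.1.

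Fosl2, which encodes the FOS-related protein FRA2, read 1869, 1781 and 1824 in wt and 1546, 1536 and 1461 in Msi1 -/- arrays. All 3 Msi1 -/- values lay below all 3 wt values, and the spread within each group was small: the highest array exceeded the lowest by 1.05 times in wt and 1.06 times in Msi1 -/- arrays. Means were 1824 ± 44.0 and 1514 ± 46.4 (SD, n = 3), a log2 difference of -0.27 ± 0.09 (SE; 95% interval -0.49 to -0.05; limma unadjusted p = 0.0217, adjusted p = 0.9997; exact permutation p = 0.1). The second Fosl2 probe set was dim, between 178 and 201, but above background in all 6 arrays, and differed by -0.04 ± 0.07 (SE). With the 2 probe sets averaged the Fosl2 difference was -0.15, and with 1 array left out at a time it stayed between -0.29 and -0.24.

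Fosl1 encodes FRA1, a FOS-related subunit linked to invasive growth in carcinoma cells. It read 154, 163 and 321 in wt and 139, 185 and 383 in Msi1 -/- arrays. Replicate 3 of each genotype stood well above the other arrays, the groups overlapped widely, and 3 of the 6 values exceeded the array background. The log2 difference was 0.10 ± 0.41 (SE; 95% interval -0.86 to 1.05), a wider interval than for the other 9 genes. Its sign depended on single arrays: it was -0.09 without wt replicate 1, -0.05 without wt replicate 2 and -0.32 without Msi1 -/- replicate 3. The second Fosl1 probe set was below background in all arrays, yet also read highest in the same 2 arrays, at 107 in wt replicate 3 and 112 in Msi1 -/- replicate 3.

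Fosb, an inducible FOS subunit, was not above background in any array. It read 109, 120.1 and 151 in wt and 114, 146 and 134 in Msi1 -/- arrays, so no fold is given for it.

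**Figure D2:**
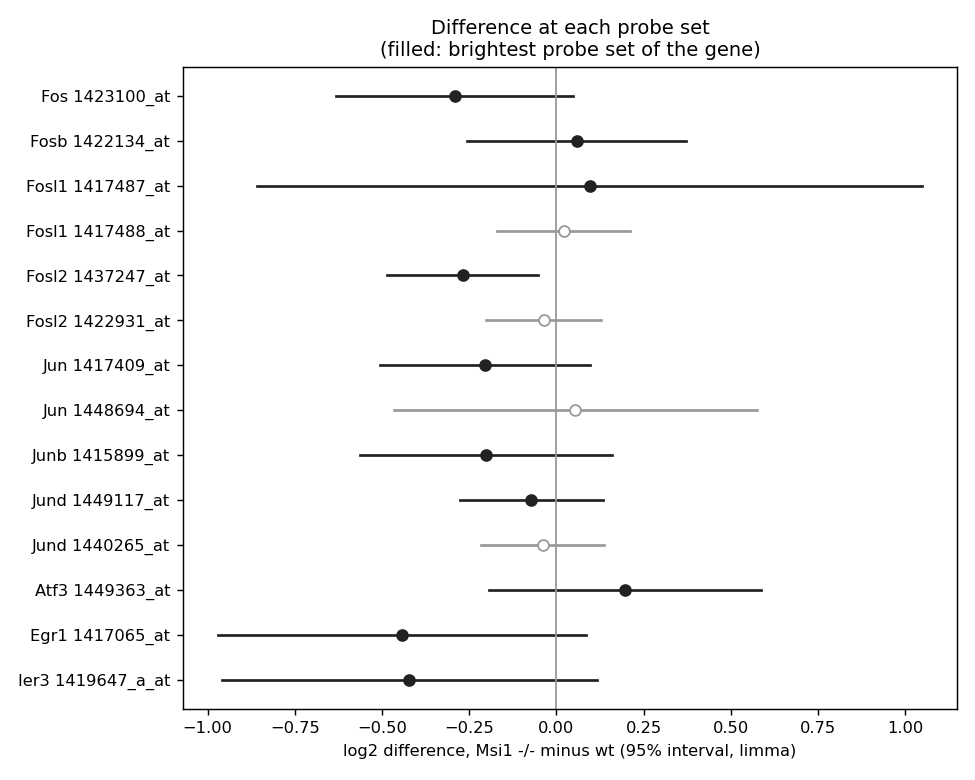
Log2 difference, Msi1 -/- minus wt (x axis), with its 95% interval from limma at each of the 14 probe sets (y axis); filled points are the probe set of highest mean of each gene and open points the others. Only the interval of the brighter Fosl2 probe set, -0.49 to -0.05, leaves out 0, and the 2 Jun probe sets lie on opposite sides of 0.

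Of the JUN subunits, Jun read 1822, 1416 and 1511 in wt and 1469.7, 1359.7 and 1276 in Msi1 -/- arrays. The groups overlapped, since wt replicate 2 lay below Msi1 -/- replicate 1, and wt replicate 1 stood above the rest. The log2 difference was -0.20 ± 0.13 (SE; 95% interval -0.50 to 0.10; limma unadjusted p = 0.154), and -0.10 without wt replicate 1. The second Jun probe set, also above background in all arrays, pointed the other way, at 0.05 ± 0.22 (SE). It read 1181, 846 and 732 in wt and 1209, 837 and 808 in Msi1 -/- arrays, with replicate 1 of each genotype high. With both probe sets averaged the Jun difference was -0.08.

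Junb, an inducible subunit that can oppose Jun, read 1585, 1647 and 1929 in wt and 1252, 1484 and 1781 in Msi1 -/- arrays. The groups overlapped, with Msi1 -/- replicate 3 second highest of the 6. The log2 difference was -0.20 ± 0.15 (SE; 95% interval -0.56 to 0.16). It was -0.08 without Msi1 -/- replicate 1, -0.12 without wt replicate 3 and -0.33 without Msi1 -/- replicate 3.

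Jund, the subunit that resting cells also express, varied least. It read 2985, 2757 and 2962 in wt and 2657, 2785 and 2840.2 in Msi1 -/- arrays, a spread of 1.12 times from lowest to highest. The log2 difference was -0.07 ± 0.09 (SE; 95% interval -0.28 to 0.13), which as a fold is between 0.825 and 1.10. It was -0.11 without wt replicate 2 and -0.04 without Msi1 -/- replicate 1. The second Jund probe set exceeded background in 1 array and differed by -0.04 ± 0.08 (SE).

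Atf3, a stress-induced factor that binds AP-1 and CRE elements, had a higher mean in Msi1 -/- arrays and was above background in all 6. It read 303, 405 and 459 in wt and 486, 394 and 444 in Msi1 -/- arrays, so that the groups overlapped and wt replicate 1 was low. The log2 difference was 0.20 ± 0.17 (SE; 95% interval -0.19 to 0.59). Without wt replicate 1 it was 0.03, without Msi1 -/- replicate 1 it was 0.13 and without wt replicate 3 it was 0.33.

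Egr1, a zinc finger factor induced through serum response elements, had a difference close in size to that of Ier3, and which of them was larger changed with the setting. Egr1 read 1851, 2082 and 2628 in wt and 1174, 2089 and 1644 in Msi1 -/- arrays. Msi1 -/- replicates 1 and 3 lay below all wt arrays, and Msi1 -/- replicate 2 lay within the wt range. Means were 2187 ± 399 and 1636 ± 458 (SD, n = 3), a log2 difference of -0.44 ± 0.23 (SE; 95% interval -0.97 to 0.09; limma unadjusted p = 0.0884; exact permutation p = 0.3). Without Msi1 -/- replicate 1, the lowest array, it was -0.22.

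Ier3, an early gene that modulates apoptosis and ERK signalling, read 5262, 3966 and 5362 in wt and 4313, 2500.4 and 4312 in Msi1 -/- arrays. The groups overlapped at wt replicate 2, and Msi1 -/- replicate 2 stood far below the other 5 arrays. The log2 difference was -0.42 ± 0.23 (SE; 95% interval -0.96 to 0.12; limma unadjusted p = 0.107), and -0.16 without Msi1 -/- replicate 2.

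**Figure D3:**
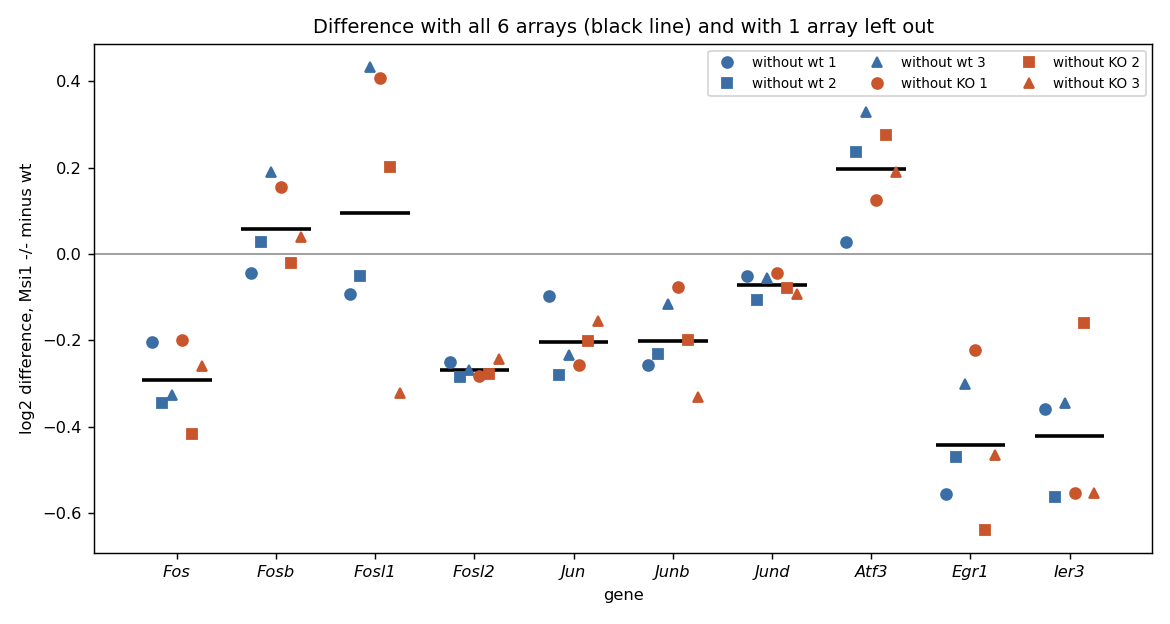
Log2 difference, Msi1 -/- minus wt (y axis), of each gene (x axis) with all 6 arrays (black line) and with 1 array left out (blue symbols a wt array, orange symbols a Msi1 -/- array, KO). Fosl2 stays between -0.29 and -0.24, Egr1 ranges from -0.64 to -0.22 and Fosl1 from -0.32 to 0.43.

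The genes did not share 1 order of arrays. Msi1 -/- replicate 1 was the lowest of the 6 arrays for 5 genes, Fos, Fosl1, Junb, Jund and Egr1, and the highest for Atf3. Over all 18193 genes, by 1 probe set each, this array was the lowest for 25.7% and the highest for 25.3%, so it stood at the extremes more often than any other array. Wt replicate 3 was highest for Fosb, Junb, Egr1 and Ier3, 4 of 10, against 9.92% of all genes. Wt replicate 1 was highest for Fos, Fosl2, Jun and Jund and lowest for Fosb and Atf3, against 22.6% and 17.9% of all genes. Wt replicate 2 was neither highest nor lowest for any of the 10, against 8.54% and 10.1% of all genes. The median of the 10 genes, each relative to its own mean, was 0.20 in wt replicate 3, 0.04 in wt replicate 1 and -0.03 in wt replicate 2, and -0.14, -0.08 and 0.03 in Msi1 -/- replicates 1 to 3, on the log2 scale. Msi1 -/- replicate 3 thus overlapped the wt arrays.

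**Figure D4:**
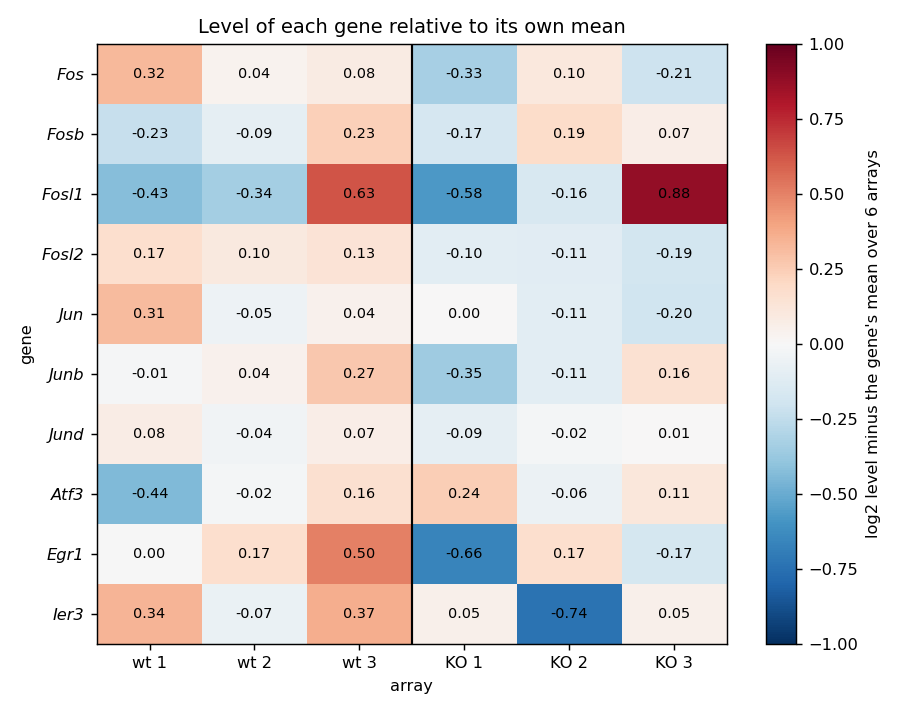
Log2 level of each gene (rows) in each array (columns) minus that gene's mean over the 6 arrays, with wt left and Msi1 -/- (KO) right of the line. Fosl1 reaches 0.88 in Msi1 -/- replicate 3, Ier3 lies at -0.74 in Msi1 -/- replicate 2 and Egr1 at -0.66 in Msi1 -/- replicate 1.

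Other properties of the arrays differed alongside these levels, and their part in the differences was not tested. Wt replicate 3 alone had the female pattern of Xist and Eif2s3y, so that pattern was not balanced between the groups. Msi1 -/- replicate 1 gave the lowest ratio of Gapdh control signal at the 3' end to that at the 5' end, 1.38 against 1.55 to 1.86 in the other arrays, and the highest background, 189. It also had the lowest summed intensity of the 10 epithelial markers, 53249, against 56829 to 74317 elsewhere. Its sums were the highest of the 6 arrays for 12 macrophage and monocyte markers, at 61411 against 35928 to 51413, for 11 fibroblast markers, at 71298 against 47000 to 60416, and for 9 endothelial markers, at 8763 against 5323 to 7402. Sums of 11 acinar markers ran from 42136 to 66613 in wt and from 14054 to 40613 in Msi1 -/- arrays without overlap. Singly, 3 of the 11 genes were lower without overlap, against 3.71% of all probe sets. All 11 had lower means in Msi1 -/- arrays, with a median log2 difference of -1.35. Of these, 9 had an unadjusted limma p under 0.05, against 3.01% of all probe sets. Their adjusted p was under 0.05 in 0 cases. The median centred log2 level of that list overlapped, at 0.39 in both wt replicate 1 and Msi1 -/- replicate 3. Epithelial sums, 56829 to 64689 in wt and 53249 to 74317 in Msi1 -/- arrays, overlapped. Of the markers in these 5 lists, 0 were below background in all arrays. Sums of 9 T and NK cell markers were 1356 to 1655 in wt and 1696 to 2311 in Msi1 -/- arrays, without overlap. Singly, 3 of the 9 genes were higher without overlap, against 4.08% of all probe sets. Of these, Cd2 read 107, 141 and 139 in wt, below background. In wt Cd3g read 131, 167 and 161, near or below background, and Cd3d 148, 226 and 227. Sums overlapped for 8 neutrophil markers (6224 to 7934 in wt, 4916 to 15082 in Msi1 -/- arrays) and for 8 B and plasma cell markers (7047 to 8909 and 5621 to 12180). They also overlapped for 8 islet markers (7468 to 9794 and 5949 to 15042) and for 6 adipocyte markers (3840 to 8165 and 3632 to 4770). The T and NK cell, B cell, islet and adipocyte lists each held 1 marker below background in all arrays, and the neutrophil list 0. Msi1 -/- replicate 2, the lowest array for Ier3, had the highest sums of T and NK cell, B cell, islet and neutrophil markers and the lowest of macrophage and fibroblast markers. Its neutrophil sum of 15082 held 9504 from Ltf (lactotransferrin) alone, a gene named after its value was seen.

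Correlation between the genes over the 6 arrays was computed for all 45 pairs, and 0 pairs passed after Benjamini-Hochberg adjustment (exact permutation over 720 orders, smallest adjusted p = 0.594). The highest Pearson's r was 0.79, for Fosl1 and Junb (exact p = 0.0569), and it was 0.54 without the 2 arrays farthest from the Fosl1 median. Fosl2 and Jun had a Pearson's r of 0.77 (exact p = 0.0347) and a Spearman's rho of 0.94 (exact p = 0.0167), and r was 0.51 without the 2 arrays farthest from the Fosl2 median. Both genes had lower means in Msi1 -/- arrays, so their r over all 6 arrays also holds the difference between the groups. Fos and Egr1 gave an r of 0.69 (exact p = 0.124) and a rho of 0.60 (exact p = 0.242), but r was -0.63 without the 2 farthest arrays, so that relation rested on them. Fos and Atf3 ran opposite, with an r of -0.84 (exact p = 0.0361), a rho of -0.83 (exact p = 0.0583) and an r of -0.91 without 2 arrays. All adjusted p-values for r were at least 0.594. Values within a genotype, 3 arrays each, were too few to correlate.

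As a description, the pattern over the 6 arrays was set against 9609 other genes with a mean log2 level of at least 8. Fos was most like Arid1b, a subunit of a chromatin remodelling complex (r = 0.99), Camk2n1, an inhibitor of a calmodulin-dependent kinase (0.99), Cnot8, a deadenylase (0.99), and Ank3, ankyrin G (0.98). Egr1 was most like Mapk1ip1l (r = 0.98), Lrif1 (0.98), the lysine methyltransferase gene Smyd2 (0.98) and Skil, an antagonist of SMAD signalling (0.98). Fosl1 was most like Btg1, an antiproliferative factor (r = 0.99), the ubiquitin-activating enzyme gene Uba6 (0.99), Poldip3 (0.99) and Mcc (0.99). No test is attached to these values, which were picked as the highest.

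The other genes of the pathway were followed in 5 lists, and 0 genes of any list had an adjusted p under 0.05 in either direction (limma, Benjamini-Hochberg). The genes named below are the 4 of each list with the smallest unadjusted p. Among 30 other immediate early genes, 16 had lower and 14 higher means in Msi1 -/- arrays, with a median log2 difference of -0.01, and 0 had an unadjusted p under 0.05. The growth-regulating factor gene Klf6 differed by -0.36 ± 0.18, Ccn2 (connective tissue growth factor) by -0.38 ± 0.19, the nuclear receptor gene Nr4a3 by 0.24 ± 0.14 and Dusp1, a phosphatase of MAP kinases, by -0.56 ± 0.40 (SE). Dusp1 read 3727, 2174 and 2063 in wt and 3056, 1021 and 1684 in Msi1 -/- arrays. Msi1 -/- replicate 2, the lowest array for Ier3, was also lowest for Dusp1, Klf6 and Ccn2 and for 11 of the 30 in all (36.7%), against 18.0% of all genes. Wt replicate 3 was highest for 11 of the 30, against 9.92% of all genes. These counts by array were made after the values were seen.

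Among 22 basic leucine zipper partners, 15 had lower and 7 higher means, with a median of -0.03. Of the 22, 2 were lower without overlap, Nfe2 among them, against 3.71% of all probe sets. Nfe2, a factor of blood cell lineages, read 202, 195 and 185 in wt and 139, 133 and 144 in Msi1 -/- arrays, a log2 difference of -0.48 ± 0.06 (SE; limma unadjusted p = 9.44e-05, adjusted p = 0.9997). That is the smallest unadjusted p of all 45037 probe sets; the wt values lay just above the background of their arrays and the Msi1 -/- values below theirs. Batf3 differed by 0.36 ± 0.20, Cebpd by -0.30 ± 0.21 and Batf by 0.17 ± 0.12 (SE), all with overlap.

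Of 17 kinases and factors upstream of AP-1, 11 had lower and 6 higher means, with a median of -0.06. Without overlap, 1 of the 17 was lower, against 3.71% of all probe sets. Mapk8, which encodes the JUN kinase JNK1, read 483, 430.1 and 472 in wt and 369, 382 and 404 in Msi1 -/- arrays without overlap. Its difference was -0.26 ± 0.09 (SE; limma unadjusted p = 0.0262, adjusted p = 0.9997). Map2k2, Mrtfb and Map3k5 differed by 0.17 ± 0.13, -0.14 ± 0.11 and -0.22 ± 0.20 (SE).

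Of 21 genes known as AP-1 targets in other systems, 11 had lower and 10 higher means, with a median of -0.02. Without overlap, 1 of the 21 was lower, against 3.71% of all probe sets. Plau, the urokinase plasminogen activator, read 354, 420.2 and 378 in wt and 304, 199 and 278 in Msi1 -/- arrays without overlap. Its difference was -0.58 ± 0.16 (SE; limma unadjusted p = 0.00873, adjusted p = 0.9997). Timp1, a metalloproteinase inhibitor, differed by 0.49 ± 0.28 and Hmga2, an architectural chromatin factor, by -0.55 ± 0.34 (SE). Mmp1a was below background, at means of 68.8 and 71.5.

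Heat shock genes, which are induced along with immediate early genes when tissue is handled, had lower means for 5 and higher means for 6 of 11, with a median of 0.07. Hspe1 and Hspd1, the mitochondrial chaperonins, differed by 0.30 ± 0.13 and 0.23 ± 0.17, and Dnajb4 and Dnaja1 by -0.13 ± 0.13 and -0.13 ± 0.15 (SE). Hspe1 read 1812, 2170 and 2225 in wt and 2330, 2840 and 2474 in Msi1 -/- arrays without overlap (limma unadjusted p = 0.0454, adjusted p = 0.9997). It was the 1 gene of the 11 that was higher without overlap, against 4.08% of all probe sets. The summed level of the 11 genes was 28219 to 32891 in wt and 26628 to 35756 in Msi1 -/- arrays, with overlap. Msi1 -/- replicate 3 was the highest array for 7 of the 11 (63.6%), against 13.7% of all genes. The median centred log2 level of the list was 0.23 there, 0.19 in wt replicate 3 and lowest, at -0.22, in Msi1 -/- replicate 1. Fosl1 and Junb were likewise highest in both replicate 3 arrays and lowest in Msi1 -/- replicate 1, and what part this had in their levels was not tested.

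**Figure D5:**
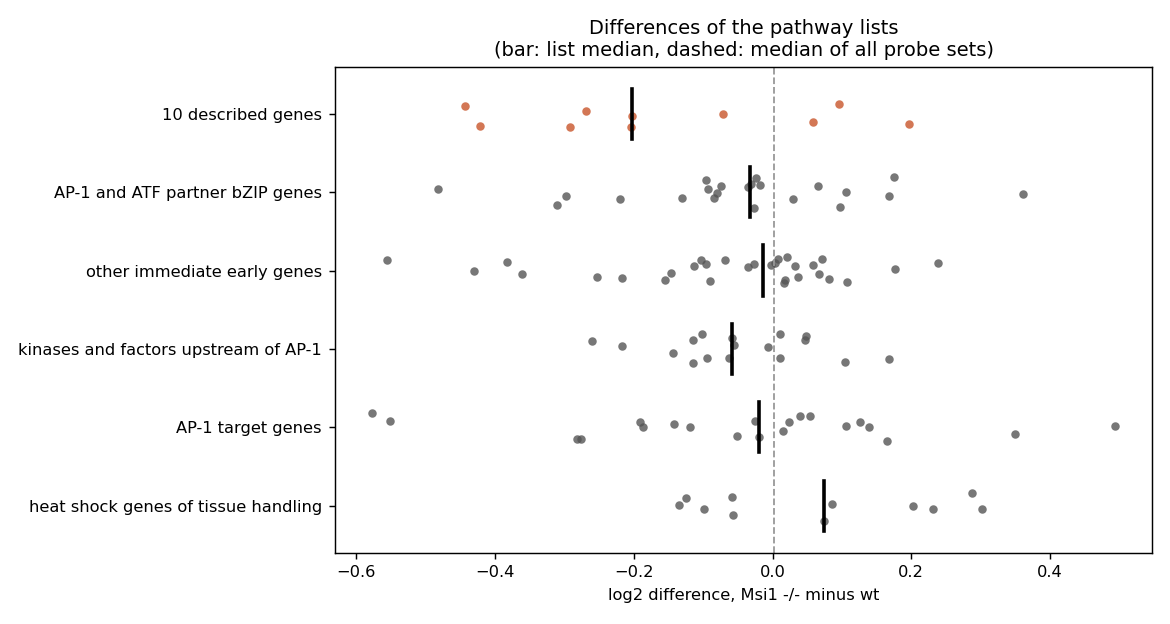
Log2 difference, Msi1 -/- minus wt (x axis), of each gene in the 10 described genes (orange) and the 5 pathway lists (grey), with list medians as bars and the median of all probe sets dashed. The medians are -0.20 for the 10 genes and between -0.06 and 0.07 for the 5 lists, and 0 of the genes shown passed the test.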

How the data were processed

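Total RNA of 6 samples (6 ug each, biotin label) went onto Affymetrix mouse arrays, 1 per sample, per the labels. The deposited table holds 1 intensity per probe set and array, made with GCRMA, which corrects background by probe sequence and normalizes quantiles, per the submitters' processing notes; version, settings and any later rescaling are not given in the sources used here. The values are linear, from 51.2 to 20365. Such background correction can compress differences of dim transcripts. 1 tumour allele that the labels give is not reported here.

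Groups and replicate numbers came from the labels. Of 45101 probe sets, 64 controls were left out and 45037 tested. The platform annotation gave 34945 of them 1 symbol, 932 several and 9160 none; symbols were updated through Entrez identifiers with RefSeq genes of GRCm38.p6 (34741 matched). Log2(intensity + 1) was fitted across all probe sets with genotype as the only term (R 4.3.3; limma 3.58.1, its lmFit and trended eBayes), Benjamini-Hochberg at 0.05. The fit was tested on simulated data. SD is over arrays, and SE is limma's moderated standard error. Exact permutation tests, correlations and motif searches used Python 3.11.15. The number of arrays limits the precision. Members, the 5 pathway lists and the 10 cell type lists were chosen with earlier results of these data known; 193 of 220 list entries were measured, and the others were not analysed here. Named genes are the 10 members, up to 4 genes per pathway list by smallest unadjusted p, and the 4 genes most like Fos, Egr1 and Fosl1. The alternatives were a pseudocount of 16, a filter at a mean log2 of 8, no variance trend, median centring, quantile normalization, array weights, a replicate block, leaving out each array and averaging probe sets per gene.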

Additional observations from a re-analysis of the deposited data

How the results depend on the processing

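For the 10 genes, 133 of 138 values under the alternatives kept their direction. Many of them could not change it. The filter, the fit without variance trend and the replicate block leave each difference as it is. Averaging does the same for genes with 1 probe set. No adjusted p of the 10 was below 0.814 in any alternative, so failing the threshold throughout says nothing of stability. The other 5 values reversed when 1 array was left out: Fosb, main value 0.06, ranged from -0.04 to 0.19 (-0.0433 without wt replicate 1), all from values below background, whose sign is not read, and Fosl1, main value 0.10, from -0.32 to 0.43. Fosb and Fosl1 could not be fitted with the filter at 8, which left 8 genes. The count of genes with lower means lay between 7 and 9, and their median difference between -0.26 and -0.11. 0 probe sets passed an adjusted p of 0.05 (limma), and 0 to 1 with 1 array left out; the 1 was Ighm, an immunoglobulin gene named after its value was seen, without Msi1 -/- replicate 1. At an unadjusted p under 0.05 the main 1355 became 546 with the filter, 2153 with array weights, 2120 with the replicate block, and 886 (without wt replicate 1) to 2723 (without Msi1 -/- replicate 1) with 1 array left out; the filter tests fewer probe sets, and for the rest the cause was not tested. Whether replicate numbers pair the arrays was not settled. Deviations from group means correlated at 0.17, -0.09 and 0.28 for numbers 1 to 3. The arrays numbered 1 and 3 correlated best with their own number, and those numbered 2 did not. With the replicate block 0 of the 10 genes passed, and 3 had an unadjusted p under 0.05 (Ier3 0.00934, Fosl2 0.0335 and Egr1 0.0420). Ier3 differed by more than Egr1 with quantile normalization, with array weights, and without wt replicate 2 or 3 or Msi1 -/- replicate 1 or 3. Signal near background limits Fosb and Fosl1.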
